A study of Mus musculus with 2 samples.

Results

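The serpins are a family of proteins that share one fold, and the genes described here are the protein-coding genes of the mm10 tables whose symbol starts with Serpin. The rule found 61 members among 21474 protein-coding genes and 43346 genes of all kinds. It left out 7 further Serpin models, of which 6 are pseudogenes and 1, Serpinb10, is classed as a polymorphic pseudogene. Agt, the angiotensin precursor, has the serpin fold but not the name and is no member. The RNA came from whole livers of mixed-sex C57BL/6J littermates taken at embryonic day 14.5, with no treatment or allele named in the labels, and only polyadenylated molecules over 200 nt entered the libraries. The series holds 1 group of 2 stranded paired-end libraries, biological replicates 1 and 2, which carry the same donor label. Nothing in the labels says that they came from separate animals, so differences between them measure the spread between these libraries, which may be technical. No contrast between conditions exists, and whole-organ RNA cannot tell fewer cells of a type from less RNA per cell.

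Most serpins block serine proteases by offering a flexible reactive centre loop as bait. The protease cuts the loop after a residue called P1, the inhibitor changes shape, and the protease stays trapped on it. The P1 residue largely sets which protease is caught. Other members have lost inhibition and carry hormones or fold collagen. Clades a, c, d, e, f and g are mostly secreted, and the liver makes many of those found in plasma, while clade b members mostly act inside cells.

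The libraries held 102720920 estimated gene counts in replicate 1 and 65640933 in replicate 2, so a gene with no count could still reach 0.0292 and 0.0457 CPM (counts scaled to a common library size). These limits and the counting intervals given further on cover counting error only, since reads carry no molecular identifiers. Mean fragment length, read from the deposited effective lengths, was 214 nt in replicate 1 and 303 nt in replicate 2. The 5 hepatocyte markers summed to 23647 TPM (abundance per length, set to a common total by the authors) in replicate 1 and 19140 in replicate 2, and all 5 erythroid, macrophage and endothelial markers reached 1 TPM in both. Markers of other tissues were lower. The 5 skeletal muscle markers summed to 13.6 and 9.41 TPM in replicates 1 and 2, most of it Mylpf (11.18 and 7.29 TPM), the 5 neural markers to 1.69 and 5.9 TPM with 4 of them called lower in replicate 1, the 5 squamous epithelium markers to 0.98 and 0.85 TPM, and the 5 pancreas markers to 6.25 and 7.8 TPM.

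A small number of plasma serpins made up nearly all of the family's RNA. At least 1 TPM in both libraries was reached by 20 of 61 members (32.8%), against 49.5% of all protein-coding genes. Those 20 members stood high, with a median of 68.4 TPM against 8.66 TPM for all protein-coding genes at that level. At 100 TPM or more in both libraries were 8 members (13.1%), against 2.33% of protein-coding genes. At the other end 16 members (26.2%) had no count in either library, against 19.7%. All members together summed to 3570 TPM in replicate 1 and 3976 TPM in replicate 2, which was 0.367% and 0.404% of all gene TPM. The 4 highest members held 67.5% and 71.4% of the family sum in replicates 1 and 2, and the 9 highest held 93.4% and 94.8%. Clade a alone held 70.6% and 73.7%, and clade b, with more genes than any other, held 0.753% and 0.366%.

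**Figure D1:**
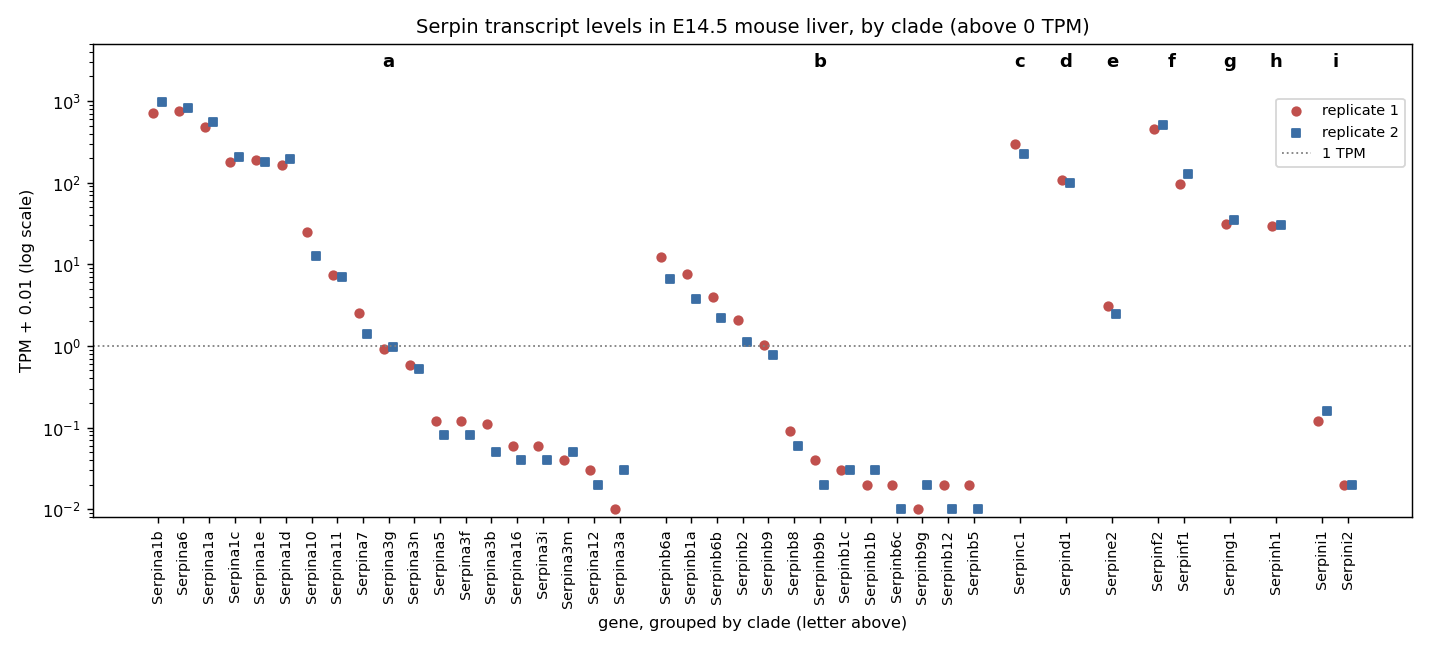
TPM plus 0.01 on a log axis for serpins above 0 TPM, grouped by clade, with circles for replicate 1 and squares for replicate 2. Clades a and b each run from high or moderate genes down to genes with a few counts, while the members of clades c, d, f, g and h all lie above the dotted line at 1 TPM.

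Clade a holds 24 genes, and its largest signal came from the alpha-1 antitrypsin genes. Alpha-1 antitrypsin protects tissue from neutrophil elastase, and the mouse carries several copies of the single human gene. Serpina1b (ENSMUSG00000071178, mm10 chromosome 12, 103728156 to 103830373, minus strand) had 711 TPM in replicate 1 and 961 TPM in replicate 2, a mean of 836 ± 177 (SD, n = 2). Serpina1a stood at 479 and 550 TPM in replicates 1 and 2. The other 3 expressed copies lay close together, with Serpina1c at 178 and 206 TPM, Serpina1e at 189 and 181 TPM, and Serpina1d at 166 and 193 TPM, replicate 1 first. Serpina1b was the highest of the 5 in both libraries and Serpina1a the next. The order of the lower 3 differed between the libraries, and their means lay within the spread of Serpina1c and Serpina1d (SD 19.9 and 19.1 TPM). Serpina1f, in the same row of genes, had no count.

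These copies differ where the protein meets its target, though not only there. The coding sequences of Serpina1a to Serpina1e are 96.3% to 98.5% identical to each other, and Serpina1f is 48.8% to 49.4% identical to them. The stretches below code for the reactive centre loop. They are shown because the copies are told apart there, and each is 75 bases of the last exon, exon 5 of 5, on the minus strand of mm10 chromosome 12. Capitals mark the 15 positions at which the 5 copies are not all alike, of 86 such positions in the 1239 coding bases. Stretches of this length held a median of 4 such positions and at most 19.
Serpina1a, chr12:103853762-103853836: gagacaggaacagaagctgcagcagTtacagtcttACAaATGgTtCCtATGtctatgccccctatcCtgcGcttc
Serpina1b, chr12:103728329-103728403: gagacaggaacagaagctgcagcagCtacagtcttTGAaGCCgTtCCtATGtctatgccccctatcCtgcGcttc
Serpina1c, chr12:103895099-103895173: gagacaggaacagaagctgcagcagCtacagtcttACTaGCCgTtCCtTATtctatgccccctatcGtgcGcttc
Serpina1d, chr12:103763767-103763841: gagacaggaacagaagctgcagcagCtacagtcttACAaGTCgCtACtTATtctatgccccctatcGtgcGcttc
Serpina1e, chr12:103947105-103947179: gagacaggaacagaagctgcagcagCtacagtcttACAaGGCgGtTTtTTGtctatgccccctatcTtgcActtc

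Against Serpina1b, the loop stretch differed at 6 bases in Serpina1a, 7 in Serpina1c and 9 each in Serpina1d and Serpina1e. The codon of the P1 residue, the one just before tct, is ATG for methionine in Serpina1a and Serpina1b, TAT for tyrosine in Serpina1c and Serpina1d, and TTG for leucine in Serpina1e. Read by that codon, the methionine pair summed to 1189 TPM in replicate 1 and 1511 TPM in replicate 2, or 69.1% and 72.2% of the 5-gene sum. The tyrosine pair held 20% and 19.1%, and the leucine gene 11% and 8.68%. The human protein has methionine at P1, so most of the signal was assigned to the copies with the human residue.

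How much each copy received depends on how shared reads were divided. The 5 copies together summed to 1722 TPM in replicate 1 and 2091 TPM in replicate 2, a mean of 1907 ± 261 TPM, which was 48.2% and 52.6% of the family. Of all stretches of 101 nt, the read length, 60.7% in Serpina1a and 58.2% in Serpina1c occur in a transcript of another gene as well. Serpina1d (29.1%), Serpina1b (26.3%) and Serpina1e (18%) had fewer such stretches. In TPM, Serpina1b held 41.3% of the sum in replicate 1 and 46% in replicate 2, and Serpina1a held 27.8% and 26.3%. The authors' mm9 gene table, averaged over its replicate columns, gave Serpina1b 34.2% and Serpina1a 28.6%, while reads on annotated mm9 junctions gave 49.5% and 15.4%. Serpina1b was first and Serpina1a second by each of these measures, and the lower 3 changed places. Serpina1c, for one, held 10.3% and 9.87% of TPM in replicates 1 and 2, but 18.1% of mm9 RPKM (reads scaled to exon length and depth) and 8.54% of junction reads. Many junction reads also joined a donor site in 1 copy to an acceptor site in another. Such junctions between 2 different copies numbered 52 and were listed with 105304 reads, against 187428 within a copy. The listed numbers recur at one splice site, with 32827 reads within Serpina1b, 32741 from there to Serpina1a and 32738 to Serpina1c. The sums may therefore count a read at more than one placement, and the junction shares given above carry the same doubt. None of the 52 bore the authors' flag for annotated junctions. The pair with most was Serpina1b and Serpina1a, with 38568 reads.

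**Figure D2:**
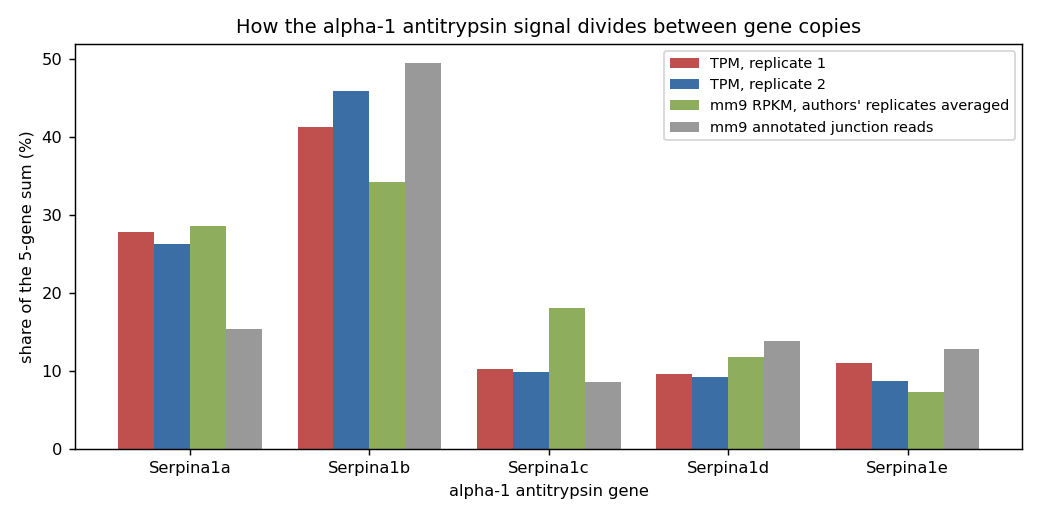
Share of the 5-gene alpha-1 antitrypsin sum held by each copy, in percent, from TPM in replicate 1 and replicate 2, from the mm9 RPKM averaged over the authors' replicates, and from mm9 annotated junction reads. Serpina1b has the tallest bar by all 4 measures (34.2% to 49.5%), and Serpina1a has the next by all 4, while the lower 3 copies change places.

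The promoters of the 5 copies share an unbroken run of 59 bases that no other promoter of the RefSeq table holds. The 55 bases of it that lie before the RefSeq start of every copy are shown because the core GTTAAT of the site bound by the liver factor HNF1 is found within it, in capitals. The sequence is from RefSeq (GRCm38.p6), and in Serpina1b it lies at chr12:103738200-103738254, minus strand.
Serpina1a to Serpina1e: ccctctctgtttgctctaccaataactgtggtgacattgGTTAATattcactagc
The same letters were absent from the promoter of the silent Serpina1f, which had no GTTAAT on either strand. Promoters of 300 bases, from 250 before the start to 50 after it, were at hand for 52 members. GTTAAT stood in 7.1% of all 32851 promoters on either strand. Among members it stood in 6 of 16 promoters at 1 TPM or more, namely the 5 copies and Serpina7, and in 5 of 36 below. The 5 copies are near-identical in sequence and are not independent cases. TATAAA was in 13.6% of all promoters, in 2 of 16 members at 1 TPM or more and in 13 of 36 below.

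Serpina6, the corticosteroid-binding globulin that carries glucocorticoids in blood, was the other leading gene of the clade. It had 760 TPM in replicate 1 and 816 TPM in replicate 2, a mean of 788 ± 39.7 TPM, and ranked first of the family in replicate 1 and behind Serpina1b in replicate 2. Unlike the alpha-1 antitrypsin copies it shared no stretch of read length with another gene. The second hormone carrier, Serpina7 (thyroxine-binding globulin, chromosome X), had 2.52 and 1.37 TPM in replicates 1 and 2. Serpina6 thus exceeded Serpina7 in every library by a wide margin. Serpina10, which blocks coagulation factor X together with protein Z, had 24.7 TPM in replicate 1 and 12.55 TPM in replicate 2. Serpina11, for which no role is given here, had 7.45 and 6.91 TPM in replicates 1 and 2. Of its stretches of read length, 41.8% also occur in Gm28577. The deposited posterior SD of the Serpina11 count, a measure of doubt in dividing reads, was 1.44 in replicate 1 and 1.7 in replicate 2.

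The remaining 15 genes of clade a stayed under 1 TPM. Serpina3g, a mouse inhibitor of lysosomal cathepsins, had 0.9 TPM in replicate 1 and 0.97 TPM in replicate 2. Serpina3n, a relative of human antichymotrypsin, had 0.58 and 0.51 TPM in replicates 1 and 2. Serpina5 (protein C inhibitor), Serpina12 (vaspin), Serpina16, Serpina3a, Serpina3b, Serpina3f, Serpina3i and Serpina3m lay between 0 and 0.11 TPM in each library. Serpina3k had 1 count in replicate 1 and 0 in replicate 2, and Serpina1f, Serpina3c, Serpina3j and Serpina9 had none. The mouse Serpina3 group therefore stayed low as a whole at this stage, with Serpina3g and Serpina3n its highest genes.

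The expressed genes of clade a lay together on chromosome 12. The clade a cluster (mm10 chromosome 12, 103614786 to 104414329) spans 800 kb, holds 23 members and no other protein-coding gene. All 8 of its members at 1 TPM or more lie in the first 10 places of the row, from Serpina10 to Serpina11, interrupted by Serpina16 and Serpina1f. The 13 genes beyond, from Serpina9 to Serpina3n, were all under 1 TPM. Both clade b clusters were mostly silent. That on chromosome 1 (106861173 to 107610484) has 11 members, of which 9 had at most 3 counts in both libraries and only Serpinb2 reached 1 TPM. That on chromosome 13 (32842092 to 34002794) has 15 members, of which 10 had at most 3 counts and 3 reached 1 TPM. These 3 sit at or near the ends of the row.

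**Figure D3:**
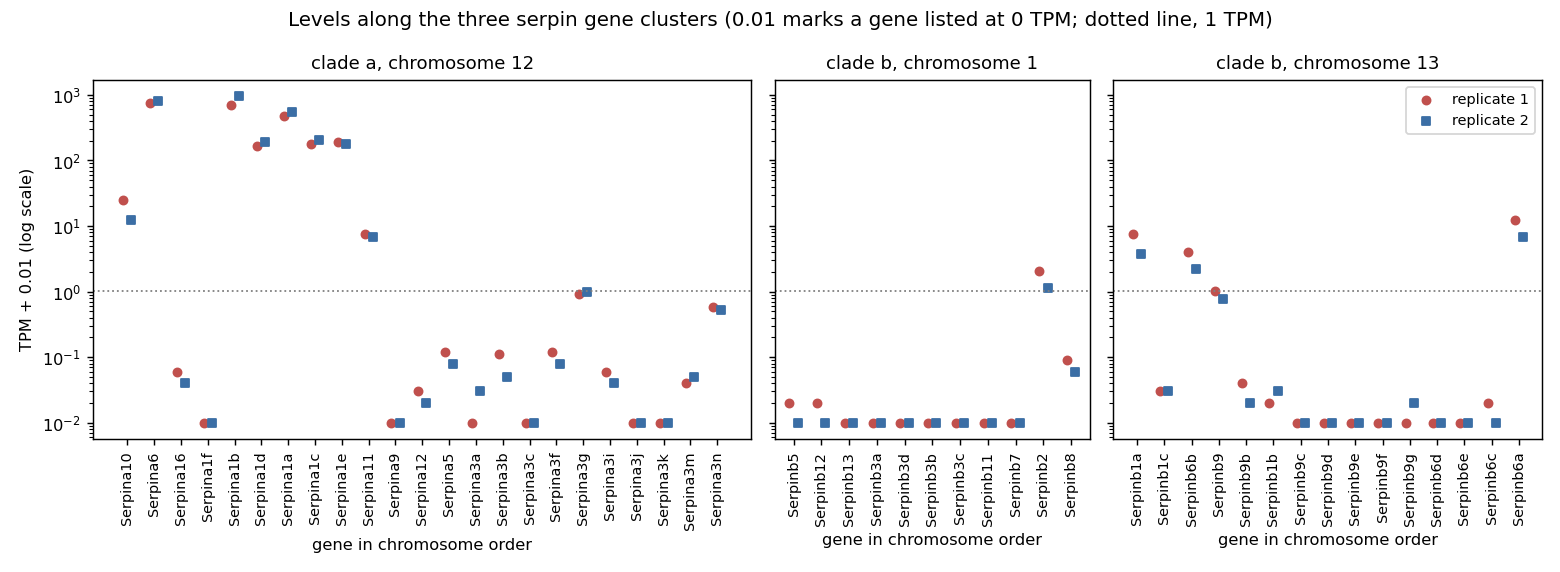
TPM plus 0.01 on a log axis for serpins in chromosome order, with circles for replicate 1, squares for replicate 2 and a dotted line at 1 TPM, for the clusters of chromosomes 12, 1 and 13. On chromosome 12 all 8 members at 1 TPM or more fall among the first 10 genes, and in the clade b clusters most points sit at the bottom.

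Clade b, the intracellular serpins, has 26 genes, and its highest reached only about the level of the lower plasma serpins. Serpinb6a, a cytosolic inhibitor found in many cell types, had 12.19 TPM in replicate 1 and 6.68 TPM in replicate 2. Serpinb1a, which inhibits neutrophil elastase and cathepsin G inside white cells, had 7.49 and 3.72 TPM in replicates 1 and 2. Serpinb6b, a relative of Serpinb6a, had 3.94 TPM in replicate 1 and 2.19 TPM in replicate 2. Each of these was higher in replicate 1. Serpinb2, plasminogen activator inhibitor 2 of macrophages, had 2.07 and 1.11 TPM in replicates 1 and 2. It overlaps the polymorphic pseudogene Serpinb10, which had 2.11 and 0.43 TPM. Doubt in dividing reads was small for Serpinb2, with a posterior SD of 1.37 on 398.5 counts in replicate 1 and 0.66 on 186 in replicate 2. Its leading transcript shared no stretch of read length with another gene. Serpinb9, the granzyme B inhibitor of lymphocytes, missed the 1 TPM level in replicate 2, at 1.01 and 0.76 TPM in replicates 1 and 2.

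All other genes of clade b were close to 0. Serpinb8 had 0.08 and 0.05 TPM in replicates 1 and 2. Serpinb9b had 10 counts in replicate 1 and 3 in replicate 2. At most 3 counts in each library were seen for Serpinb1b, Serpinb1c, Serpinb5 (maspin), Serpinb6c, Serpinb7, Serpinb9g, Serpinb11 and Serpinb12. No count was seen for 11 genes. These were Serpinb3a, Serpinb3b, Serpinb3c, Serpinb3d, Serpinb6d, Serpinb6e, Serpinb9c, Serpinb9d, Serpinb9e, Serpinb9f and Serpinb13. Several of these low genes, such as Serpinb5 and Serpinb3a, are known from skin and other squamous epithelium.

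Serpinc1, Serpind1, Serpinf2 and Serping1, inhibitors of clotting, fibrin breakdown or complement, were well above 1 TPM. Their reactive loops are shown for comparison with those of alpha-1 antitrypsin, as 57 bases of the last exon in mm10, with the P1 codon in capitals.
Serpinc1, chr1:161002305-161002361, plus strand: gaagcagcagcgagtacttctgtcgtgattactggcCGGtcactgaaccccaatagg
Serpind1, chr16:17342895-17342951, plus strand: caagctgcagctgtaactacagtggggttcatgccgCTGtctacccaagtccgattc
Serpinf2, chr11:75432652-75432708, minus strand: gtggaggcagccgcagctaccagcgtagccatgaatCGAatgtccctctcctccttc
Serping1, chr2:84765661-84765717, minus strand: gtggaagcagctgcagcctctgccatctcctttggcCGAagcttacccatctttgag
The P1 codon is CGG in Serpinc1 and CGA in Serpinf2 and Serping1, all for arginine, a residue after which thrombin, plasmin and the first complement proteases cut. Serpind1 has CTG, for leucine.

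Serpinf2, the main inhibitor of plasmin, led this group at 460 and 513 TPM in replicates 1 and 2, a mean of 486 ± 37.9 TPM. Serpinc1 (antithrombin, which blocks thrombin and factor Xa when bound to heparin) had 296 and 224 TPM in replicates 1 and 2. Serpind1 (heparin cofactor II, a thrombin inhibitor) had 108 TPM in replicate 1 and 99.6 TPM in replicate 2. By mean, Serpinf2 thus exceeded Serpinc1 and Serpinc1 exceeded Serpind1, and the libraries did not overlap between these genes. In the authors' mm9 means Serpinc1 (32.3 RPKM) came just below Serpind1 (34.9 RPKM), both under Serpinf2 (121 RPKM), so the order of antithrombin and heparin cofactor II depended on the table. Serping1, the C1 inhibitor that controls the first complement proteases and plasma kallikrein, had 31.1 and 35 TPM in replicates 1 and 2. In clade e, Serpine2 (protease nexin 1) had 3.09 TPM in replicate 1 and 2.44 TPM in replicate 2. Serpine3 of the same clade had no count.

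The members without protease inhibition in clades f and h were also expressed. Serpinf1, pigment epithelium-derived factor, had 96.1 TPM in replicate 1 and 127 TPM in replicate 2. Both clade f genes lie on the minus strand of mm10 chromosome 11, Serpinf1 at 75409769 to 75422701 and Serpinf2 at 75431732 to 75439591, and Serpinf2 was the higher in each library. Serpinh1, the collagen chaperone HSP47 of the endoplasmic reticulum, had 29.8 and 30.4 TPM in replicates 1 and 2, and its SD of 0.438 TPM was small beside its mean of 30.1. Clade i was near 0. Serpini1 (neuroserpin, mostly of neurons) had 0.11 TPM in replicate 1 and 0.15 TPM in replicate 2, and Serpini2 (pancpin, of the pancreas) had 0.01 TPM in each.

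Genes that serpins act on or work with were described from lists of targets and partners. Of 8 clotting proteases listed, Klkb1 was not found by its symbol. The 7 found all reached 1 TPM in both libraries. They were led by F2 (prothrombin), at 194 and 172 TPM in replicates 1 and 2, and Proc (protein C), with 69.4 and 65 TPM. Of 6 fibrinolysis genes 4 reached 1 TPM. Vtn (vitronectin) had 388 and 356 TPM in replicates 1 and 2, and Plg (plasminogen), the target of Serpinf2 once activated, had 191 and 162 TPM. Serpinf2 thus stood above plasminogen in both libraries. Early complement proteases were lower, with 4 of 6 at 1 TPM, C1s1 at 37.7 and 34.5 TPM and Masp2 at 20.1 and 29.6 TPM in replicates 1 and 2. All 4 neutrophil serine proteases were present, with Prtn3 (proteinase 3) at 128 TPM in replicate 1 and 151 TPM in replicate 2 and Elane (neutrophil elastase) at 54.4 and 67.3 TPM. No gene of the list of granzymes and perforin (0 of 6) reached 1 TPM in both libraries, and Gzmm and Gzma, the highest, stayed at or under 0.18 TPM. None of 5 mast cell and basophil proteases reached 1 TPM in both. Mcpt8 of that list had 4.47 TPM in replicate 1 and 0.8 TPM in replicate 2, and Cma1 had 0.13 and 0.12 TPM.

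Partners of the secretory route were all detected. All 10 collagen partners of Serpinh1 reached 1 TPM, with medians of 14.2 TPM in replicate 1 and 8.09 TPM in replicate 2, led by P4hb, at 207 and 142 TPM in replicates 1 and 2, and Sparc, with 56.9 and 43 TPM. All 11 genes of secretory quality control, through which misfolded alpha-1 antitrypsin passes, reached 1 TPM. Calr had 252 and 143 TPM in replicates 1 and 2 and Hspa5 had 245 and 72.7 TPM, both chaperones of the endoplasmic reticulum. Of 5 genes listed for clearance 4 reached 1 TPM, led by Lrpap1 (24.4 and 18.6 TPM in replicates 1 and 2). Next came Lrp1 (17.4 and 14.1 TPM), the receptor that removes serpin complexes. Membrane serine proteases had 3 of 5 at 1 TPM, with Hpn (hepsin) at 43.1 and 47.6 TPM and Tmprss6 at 11.1 and 14 TPM, replicate 1 first. Lysosomal cathepsins had 4 of 5, with Ctsb at 142 and 124 TPM and Ctsl at 67.2 and 47.3 TPM in replicates 1 and 2. Of the 7 renin and angiotensin genes 3 reached 1 TPM. Agt had 60.6 TPM in replicate 1 and 72.2 TPM in replicate 2, and the receptor gene Agtr1a had 8.23 and 8.33 TPM. Of 7 hormone carrier and receptor genes 5 reached 1 TPM, with Alb at 10323 and 8911 TPM and Ttr, the other thyroxine carrier, at 873 and 746 TPM in replicates 1 and 2. Of 10 liver transcription factors 9 did, led by Hnf4a (22 and 23 TPM in replicates 1 and 2) and Cebpa (14.3 and 17.8 TPM).

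No serpin was called different between the libraries, and the expressed clade b genes all had higher scaled counts in replicate 1. Counts were scaled by TMM and compared by a two-sided exact binomial test per gene, called at a Benjamini-Hochberg adjusted p under 0.05 and at least 2-fold. Of 34 members with at least 10 counts in all, 0 were called, against 8.02% of all 17906 genes tested (4.43% higher in replicate 1 and 3.59% lower). At an unadjusted p under 0.05 there were 18 members, against 11317 of the 17906 genes. edgeR's exact test called 0 members with the spread taken from housekeeping genes, where 4.09% of all genes were called. With the spread of all tested genes it also called 0, against 1.36% of all genes. With no fold minimum 18 of 34 passed, against 60.2% of all genes, with 5 higher in replicate 1 (background 30.3%) and 13 lower (background 29.9%). The 5 higher were Serpina10 and the 4 clade b genes at 1 TPM or more. This test sees counting noise only and compares these libraries, not conditions.

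Counts of Serpinb6a numbered 1966 in replicate 1 against 722 in replicate 2, a scaled log2 ratio of 0.80 (exact 95% interval 0.67 to 0.92, adjusted p = 1.55e-38 by the exact binomial test). Serpinb1a followed with 1611 and 593 counts in replicates 1 and 2 and a log2 ratio of 0.79 (0.66 to 0.93), and Serpinb6b and Serpinb2 stood at 0.62 and 0.45. With the spread of housekeeping genes, edgeR's exact test gave an adjusted p of 0.194 for Serpinb6a and 0.199 for Serpinb1a. The same test gave 0.418 for Serpinb6b and 0.667 for Serpinb2. By scaled counts all 4 clade b genes at 1 TPM or more were higher in replicate 1. In clade a the median of the 9 genes at that level was -0.30, between -0.62 for Serpina1b and 0.22 for Serpina10. Serpinf1, Serpinf2 and Serping1 lay at -0.37, -0.36 and -0.38, Serpinc1 at -0.34, Serpinh1 at -0.28, Serpind1 at -0.10 and Serpine2 at -0.03. Of the 20 members 12 were lower in replicate 1 at an adjusted p under 0.05 with no fold minimum, all of them outside clade b. Of all 11572 tested genes at 1 TPM or more, 4258 were lower and 4562 higher in that way, with a median of 0.01. Lists of white cell markers had medians of either sign. The 5 granulocyte markers summed to 1245 TPM in replicate 1 and 957 TPM in replicate 2 with a median log2 ratio of -0.36. Among them S100a8 (log2 1.28, called) and S100a9 (0.73) were higher in replicate 1. Mpo (-0.51), Elane (-0.41) and Ngp (-0.36) were lower. The 5 mast cell and basophil markers summed to 17.3 and 10.7 TPM with a median of 0.59. The macrophage list had a median of -0.24 (104 and 116 TPM in replicates 1 and 2). The T and NK cell list had a median of -0.47 (5.65 and 6.79 TPM), with Cd3g called lower in replicate 1 on 9 and 18 counts. Among liver factors, Cebpb was called higher in replicate 1 (2680 counts against 637 in replicate 2, log2 1.42), and in the protease lists Mcpt8 was (362 counts against 44 in replicate 2, log2 2.38). The part of these in the serpin values was not tested.

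Direction depended on the scale for some genes. In TPM the median of all genes at 1 TPM or more moved to 0.23 on the log2 scale, and 5 of 20 members changed sign, namely Serpina1e, Serpina11, Serpinc1, Serpind1 and Serpine2. Serpinc1 was -0.34 in scaled counts and 0.40 in TPM. Serpina10 and Serpina7, at 0.22 and 0.16 in scaled counts, were 0.98 and 0.87 in TPM. With spike-in RNA as the scale the median of all genes was -0.65, and Serpinb6b (-0.03), Serpinb2 (-0.21), Serpina10 (-0.43) and Serpina7 (-0.49) had values below 0, so that only Serpinb1a and Serpinb6a (both 0.14) stayed higher in replicate 1. A change of library sizes moves every gene by the same amount, so it cannot alter the order of the clades and does not test it.

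**Figure D4:**
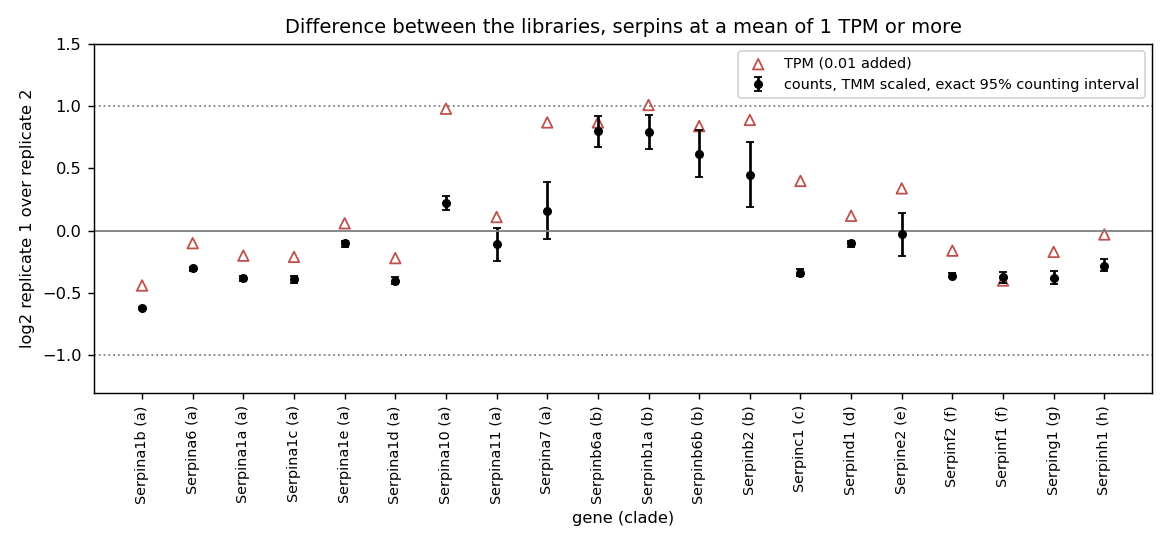
Log2 ratio of replicate 1 over replicate 2 for the 20 serpins at a mean of 1 TPM or more, from TMM-scaled counts with exact 95% counting intervals (dots) and from TPM (triangles), with dotted lines at 2-fold. The 4 clade b genes lie at 0.45 to 0.80 in counts and most plasma serpins between -0.62 and 0, while triangles of Serpina10, Serpina7 and Serpinc1 sit far above their dots.

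Transcript shares were divided in 10 of the 20 members at 1 TPM or more, where the leading transcript held under 80% of the gene's TPM in a library. The leader differed between the libraries in 2. For Serpina10, Serpina10-201 (3498 nt) held 43.4% in replicate 1 and 85.81% in replicate 2, and the shorter Serpina10-202 (1424 nt) held 56.6% and 14.19%. In TPM the long form was level, at 10.74 and 10.77 in replicates 1 and 2, and the short form had 14 and 1.78. The gene's TPM difference lay in the short form, then. For Serpinf1 the leader was Serpinf1-208 (976 nt, a nonsense-mediated decay form) with 37.1% in replicate 1, and Serpinf1-202 (605 nt) with 47.96% in replicate 2.

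By share of TPM, antithrombin RNA was assigned mostly to short forms. Serpinc1-205 (1044 nt) held 54.88% in replicate 1 and 63.93% in replicate 2, and Serpinc1-204 (742 nt, nonsense-mediated decay) held 39.18% and 20.62%. The form that codes for the full protein printed above in part, Serpinc1-201 (4970 nt), held 5.26% and 14.51%. Its estimated counts were 9356 of the gene's 34322 in replicate 1 and 14991 of 27632 in replicate 2. Serpinc1-205 had 17053 and 10506 counts, so by counts the long form led in replicate 2. A short form also took part of the TPM of Serpina7, where Serpina7-201 (2330 nt) held 61.68% in replicate 1 and 90.55% in replicate 2. The rest was Serpina7-203 (379 nt), which had only 20.24 of 436 counts in replicate 1 and 1 of 249 in replicate 2. Serpinf2-201 held 59.91% and 69.11%, Serpinb2-202 76.26% and 91.58%, and Serpinh1-201 89.6% and 75.16% in replicates 1 and 2. In Serpinb2 the 347 nt form Serpinb2-204 held 15.69% in replicate 1 on 5.5 of 398.5 counts. Serpinb6a-202 held 80.79% and 72.36%, and Serpinb6b-203 70.35% and 60.87%, replicate 1 first. Serpind1 was led by a form of 2051 nt, with 55.01% in replicate 1 and 58.79% in replicate 2, whose name is not used here. Of these 10 genes 3 (Serpina10, Serpinb6a and Serpinh1) had on mm9 the same leading transcript as in mm10 and 7 had another. Serpina10-201 held 98.4% there, Serpinf2 was led by Serpinf2-202 (44.7%), Serpinb2 by Serpinb2-201 (68.9%) and Serpina7 by Serpina7-203 (52.4%), and Serpinc1-201 was the single Serpinc1 model. Fragment length, 214 nt in replicate 1 and 303 nt in replicate 2, sets the effective length of such short forms, and its part in these shares was not tested.

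**Figure D5:**
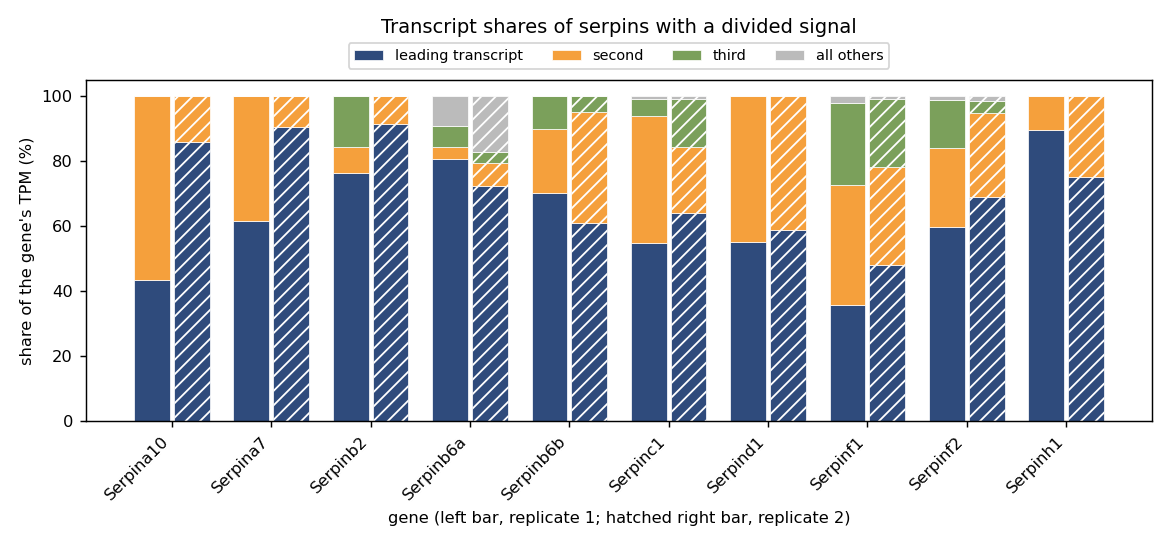
Stacked shares of a gene's TPM, in percent, for the 10 serpins whose leading transcript held under 80% in a library, with the left bar for replicate 1 and the hatched right bar for replicate 2. Serpina10 differs most between its bars, with 43.4% and 85.81% for the transcript that leads by mean.

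Splicing in the mm9 tables was seen mostly in the members at 1 TPM or more. Of 438 annotated introns of the family 206 had spliced reads. Members at 1 TPM or more had reads on 136 of 164 introns, and the 41 others on 70 of 274. Serpina6 led with 149809 reads, Serpinf2 had 113979 on all 11 of its introns and Serpinc1 had 39753 on all 7. No intron read at all was seen for 21 members. In these tables, 16 members reached 1 RPKM, all of them among the 20 at 1 TPM. Serpina7 (0.845 RPKM), Serpinb6b (0.835), Serpine2 (0.832) and Serpinb2 (0.308) did not, as the authors' mean over replicate columns. Contigs of signal covered a median of 99.7% of exon bases in members at 1 TPM or more and 0% in the others. Among the low genes, Serpina3n had reads on all 4 of its introns (50 reads), Serpina3g on 6 of 9 (70 reads), Serpinb9 on 6 of 7 (166 reads) and Serpini1 on 7 of 10 (62 reads).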

How the data were processed

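For each library the authors deposited gene and transcript tables on mm10 with, per the file headers, an expected count, TPM, FPKM and, for transcripts, the percent of the gene's abundance. A note in the deposited files names annotation M4, and the aligner is not given in the sources used here. On mm9 the authors deposited gene, transcript and exon models with RPKM of replicates not tied to a library, so their mean was used. Junctions with a read count and contigs with a coverage signal carry an irreproducible discovery rate, deposited in a column read here as a p-value. No column of per-sample values was left out.

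Symbols came from GENCODE M21. Members and lists were chosen with earlier results of these data known. Expected counts were rounded, and spike-in, phiX and numeric rows (2.84%, 0.0764% and 2 counts in replicate 1, 1.82%, 0.0857% and 0 counts in replicate 2) stayed out. Scaled counts are the counts divided by TMM effective library sizes. edgeR's quasi-likelihood test has no residual degrees of freedom here, so libraries were compared by the two-sided exact conditional binomial test (10 counts or more over both libraries, p adjusted by Benjamini and Hochberg across all such genes), adding 0.5 to counts for fold changes and 0.01 to TPM. Every member is named once except 1 that is not reported here, and those with a mean of 1 TPM or highest in their clade have their values given. Of each partner list the 2 highest and all called genes are given. Short of a protein table, loops are shown as coding bases. Other settings of scale, minimum, unit, dispersion and replicate were tried. Tools were R 4.3.3, edgeR 4.0.16, DESeq2 1.42.0, Python 3.11.15 with scipy 1.17.1, numpy 2.4.6, matplotlib 3.10.9 and pandas 2.3.3.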

Additional observations from a re-analysis of the deposited data

How the results depend on the processing

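The count of members at 1 TPM or more in both libraries, 20, was 16 at 1 RPKM on mm9, 22 at 1 FPKM and 25 at 0.1 TPM, and dropped to 13 at 10 TPM. Leaving out a replicate gave 20 to 21. The 0 members called between the libraries stayed 0 with DESeq2 size factors, summed counts as library sizes and a minimum of 1 or 100 counts. Both edgeR exact tests left it at 0 too. Under these settings 1.36% to 8.02% of all genes were called. The count of members was 8 with spike-in library sizes, all lower in replicate 1, where 21.2% of all genes were called. It was 18 with no fold minimum, where 60.2% of all genes passed. By 2-fold in TPM with no test it was 3 (Serpinb9b, Serpinb1a and Serpina3b), where 12.7% of all genes passed. Clade a held 72.1% of the family's TPM on average, but 68.6% of expected counts, 82.3% of mm9 RPKM and 43.8% of TPM once the alpha-1 antitrypsin genes were left out. Leaving out a replicate gave 70.6% to 73.7%. The mean share of Serpina1b among the copies was 43.6%, against 34.2% in mm9 RPKM and 49.5% in mm9 junction reads, with 41.3% to 46% in single replicates. The cause of these moves was not tested, except that leaving out genes lowers the clade sum by construction. Counts of divided transcripts (10, between 7 and 11 elsewhere), introns with reads (206, with 143 at an IDR of at most 0.1 and 140 at 10 reads or more) and members with at least 50% of their exon bases under a contig (29, with 27 at that IDR) stayed within 1.5 times, although 7 of the 10 divided genes had another leading transcript on mm9. The 9 highest members were the same 9 in FPKM and in replicate 2 alone, and 8 of the 9 in mm9 RPKM and in replicate 1 alone. No paired analysis was possible because the series holds 1 group. With 2 libraries no spread between animals can be estimated, leaving out a library ends the comparison, and genes under a few counts could not be ordered at this depth.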
